A study of Mus musculus with 3 samples.

Results

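Gamma-delta T cells of the mouse ovary are described here, taken as the cells that the authors' cell metadata name T cell/ILC and that held at least 1 UMI (a counted RNA molecule) of Trdc and Tcrg-C1 summed. Trdc and Tcrg-C1 encode constant regions of the gamma-delta T cell receptor. The rule found 223 of the 700 T cell/ILC cells and of 14353 cells in all: 25 in the young, 82 in the aged untreated and 116 in the metformin condition. The other 477 T cell/ILC cells served as the comparison within the class. Ovaries of C57BL/6 females were dissociated, with 3 left ovaries pooled for each group, and sequenced as 3′ libraries. The young mice were 3 months old, and the mice of the third condition, labelled Prevention Metformin (Aged), received metformin, a drug against diabetes, from 14 months of age for 6 months, with 350 mg/kg per day given in the drinking water. The design also has a reversal arm that started at 18 months, and the word Prevention in the cell label sets these cells in the arm from 14 months. The untreated aged cells carry the label Aged. The design names both controls kept without drug and untreated mice of 14 months, and the label does not say which these were. Cell suspensions passed a 40 μm strainer, which removed oocytes. Cells of the 3 conditions were marked with lipid-anchored DNA tags, mixed, and run as 3 pools, A, B and C. Tags name conditions, not mice, so each condition is 1 sample. The labels do not say whether the pools hold cells of different mice, and the 3 pools were treated as technical repeats of a condition. No test between conditions was possible, and every interval given is an exact 95% interval for counting error only. The cells had been sorted by flow cytometry before loading, and the labels do not describe the gate, so shares are shares of sorted cells.

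Gamma-delta T cells are lymphocytes that seed tissues from fetal life onward and respond to cytokines without classical antigen presentation. Those with a type 17 program respond to IL-23 and IL-1, and release IL-17A, which acts through a receptor of Il17ra and Il17rc on stromal, epithelial and myeloid cells. A subset made in the fetal thymus joins the gamma segment Tcrg-V6 to Tcrg-C1 and pairs it with the delta segment Trdv4. Its receptor is nearly invariant, and such cells are known from mucosal and reproductive tissues, where many carry the scavenger receptor Cd163l1.

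The receptor sequences behind these counts are shown because the transcripts that name the cells differ in how uniquely they can be read. Coordinates and sequences are from GENCODE M21 on GRCm38. Tcrg-V6 lies on the plus strand of chromosome 13 and Trdv4 on the plus strand of chromosome 14, within the region that also holds Trdc, and the first 300 bases of the coding V exon of Tcrg-V6 (chr13:19190621-19190920) and the whole coding V exon of Trdv4 (chr14:54075217-54075515) read as follows.
Tcrg-V6: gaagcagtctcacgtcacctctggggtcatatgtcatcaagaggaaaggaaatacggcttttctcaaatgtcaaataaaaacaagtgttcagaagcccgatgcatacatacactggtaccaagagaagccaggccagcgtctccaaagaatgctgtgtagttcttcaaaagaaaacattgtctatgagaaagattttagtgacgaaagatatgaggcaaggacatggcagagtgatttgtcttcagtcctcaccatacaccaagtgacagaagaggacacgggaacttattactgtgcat
Trdv4: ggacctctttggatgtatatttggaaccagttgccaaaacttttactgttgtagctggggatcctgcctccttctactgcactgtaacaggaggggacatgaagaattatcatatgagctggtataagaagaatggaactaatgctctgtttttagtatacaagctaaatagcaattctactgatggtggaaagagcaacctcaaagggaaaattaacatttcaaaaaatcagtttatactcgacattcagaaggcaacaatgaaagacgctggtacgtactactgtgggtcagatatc
The 3 gamma constant genes shown next lie close together on chromosome 13. The coding part of their last exon, 140 bases in each, is at chr13:19216476-19216615 on the plus strand for Tcrg-C1, at chr13:19305063-19305202 on the minus strand for Tcrg-C2 and at chr13:19352201-19352340 on the plus strand for Tcrg-C4. Capitals mark positions that differ from Tcrg-C1.
Tcrg-C1: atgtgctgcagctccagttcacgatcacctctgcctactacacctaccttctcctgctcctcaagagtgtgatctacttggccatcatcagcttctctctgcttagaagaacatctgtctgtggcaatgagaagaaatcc
Tcrg-C2: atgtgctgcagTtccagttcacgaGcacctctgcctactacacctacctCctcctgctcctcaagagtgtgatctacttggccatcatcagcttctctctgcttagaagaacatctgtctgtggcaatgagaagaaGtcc
Tcrg-C4: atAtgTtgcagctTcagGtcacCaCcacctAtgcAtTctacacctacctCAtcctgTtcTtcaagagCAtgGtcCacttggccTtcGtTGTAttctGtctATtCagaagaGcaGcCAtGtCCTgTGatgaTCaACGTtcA
Tcrg-C2 differed from Tcrg-C1 at 4 of the 140 positions and Tcrg-C4 at 44. In the 3′ UTR, where 3′ libraries have most of their reads, Tcrg-C2 matched Tcrg-C1 at 93.2% of aligned positions with an identical run of 104 bases, and Tcrg-C4 at 53.9% with a longest run of 8. Counts of Tcrg-C1 are therefore uncertain with respect to Tcrg-C2, which had UMIs in 26.5% of the gamma-delta cells and in 18.3% of T cell/NKT cells. By condition, Tcrg-C2 had UMIs in 44.0% of young, 30.5% of aged and 19.8% of metformin gamma-delta cells.

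The 2 genes of the rule gave 793 UMIs of Trdc and 297 of Tcrg-C1, and 101 cells held both. The cells were chosen by these UMI counts, which are given as a description. In the aged condition 69 of 82 cells held Trdc and in the metformin condition 81 of 116, but in the young condition only 7 of 25 did, and 18 young cells entered through Tcrg-C1 alone. A single UMI of the rule genes admitted 17 of 25 young, 14 of 82 aged and 29 of 116 metformin cells. At the threshold, the 60 cells with 1 UMI held Trac, the constant region of the alpha chain of alpha-beta receptors, in 45%, Trdv4 in 8.33% and Cd163l1 in 11.7%. The 163 cells with 2 or more UMIs held Trac in 9.82%, Trdv4 in 66.3% and Cd163l1 in 64.4%, and the 477 cells just outside the rule held them in 51.4%, 2.52% and 0.629%. The young cells thus go in part against the label, since most rest on a single UMI of the rule genes and most hold no Trdc.

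The gamma-delta cells were deeper in the young condition, with a median of 3408 UMIs against 1803 in the aged and 1830 in the metformin condition. Their summed UMIs were 98455, 151612 and 212364. Pool B of the young condition had 5 cells with a median of 7645 UMIs, and 3 young cells with at least 6747 UMIs each held 146 of the 149 UMIs of 6 fibroblast genes found in the young cells. The summed fibroblast level was 1513 CPM (UMIs of a gene as counts scaled to a common total of UMIs) in young cells, from 65.4 to 3627 over pools, against 33.0 in aged and 42.4 in metformin cells. Igkc, an antibody light chain of plasma cells, had a UMI in 64.0% of young, 61.0% of aged and 57.8% of metformin cells, while the B cell gene Ms4a1 was at 0. Haemoglobin genes were at 0 in every condition. In all, 26 cell barcodes occurred in 2 pools, and 2 of the gamma-delta cells carried such a barcode.

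Outside the 2 genes of the rule, the cells carried a T cell receptor complex and a type 17 profile. The CD3 chains Cd3g and Cd3e had a UMI in 95.1% and 74.9% of them. A UMI of any alpha-beta receptor constant gene (Trac, Trbc1 or Trbc2) was found in 201 of the 223 cells, 90.1%, and in all 25 young cells, beside 93.3% of the rest of T cell/ILC and 73.2% of NK cell/ILC. The 2 sets were close in Trbc2, with 83.9% against 84.7%, and apart in Trac, with 19.3% against 51.4%. Cd163l1 was detected in 50.2% (95% interval 43.5 to 57.0) of the gamma-delta cells and in 0.629% of the rest of T cell/ILC, at a median depth of 1856 UMIs against 2031. Trdv4 was detected in 50.7% against 2.52%, and Tcrg-V6 in 12.6% against 0.210%. Il17a itself was found in 17.9% against 1.47%. Il23r, the IL-23 receptor, was found in 17.5% against 5.03%. Few or no T cell/NKT cells, at a median depth of 2018 UMIs, held these genes: Cd163l1 in 0.410% and Il17a in no cell. NK cell/ILC cells, at a median of 2329 UMIs, held Trdv4 in 7.95% but Cd163l1 in none. Il17f, the sister cytokine of Il17a, gave only 4 UMIs in the gamma-delta cells. Ncr1, Klrb1c, Cd4, Foxp3 and Ifng had no UMI in any of the 223 cells. For each of them the exact 95% interval of the share of cells with a UMI reaches 1.64%.

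**Figure D1:**
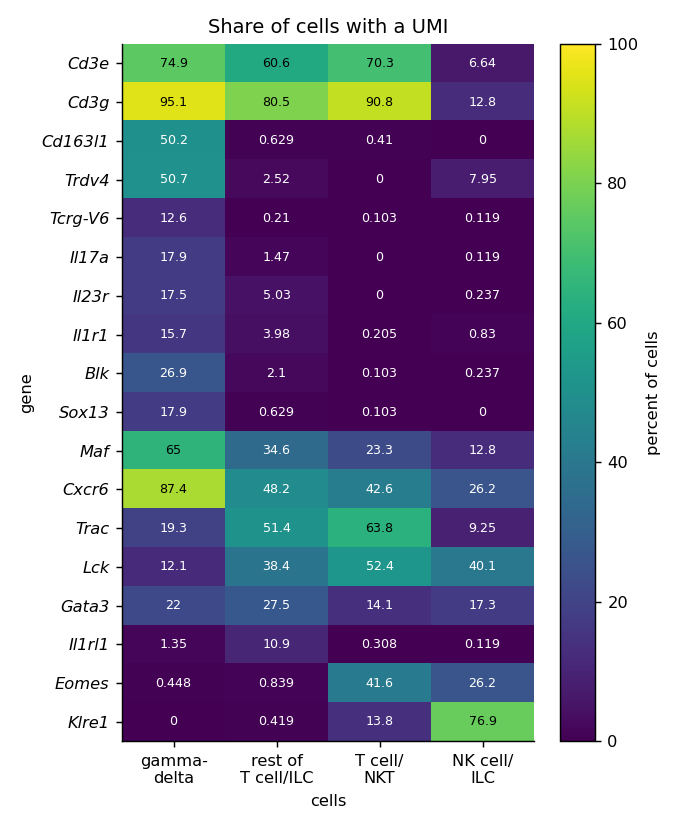
Percent of cells with at least 1 UMI of each gene (rows) in the 223 gamma-delta cells, the 477 other T cell/ILC cells, 975 T cell/NKT cells and 843 NK cell/ILC cells (columns), not thinned for depth. Cd163l1, Trdv4, Blk and Sox13 are higher in the first column than in the others, and Trac and Lck are lower there than in the T cell columns.

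Of all 295 UMIs of Il17a in the series, 217, or 73.6%, came from these 223 cells. The remaining T cell/ILC cells gave 44 UMIs from 7 cells, and fibroblasts gave 26 UMIs from 3 cells. Il17a was unevenly spread among the gamma-delta cells: 40 of 223 held it, and the highest cell had 26 UMIs. The source differed by condition. In the aged condition the gamma-delta cells gave 142 UMIs and the rest of T cell/ILC none in 118 cells. In the young condition they gave 8 UMIs from 3 of 25 cells. The rest gave 36 UMIs from 4 of 121 cells there, and 27 of these UMIs came from 1 cell.

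The markers of the fetal subset came together in single cells. Cd163l1 was detected in 80 of the 113 cells with Trdv4 and in 32 of the 110 without it. Tcrg-V6 was detected in 23 of the 113 and in 5 of the 110. Among the 112 cells with Cd163l1, Trac was detected in 7, against 36 of the 111 without Cd163l1. The young cells did not follow this, with Trac in 3 of 5 cells with Cd163l1 and in 5 of 20 without. Blk, a Src family kinase, was detected in 45 of 112 against 15 of 111, Sox13, a transcription factor of gamma-delta cells with a type 17 program, in 28 against 12, and Il17a in 31 against 9. Il23r did not follow that division, with 19 of 112 against 20 of 111. Cells with a UMI of Cd163l1, Trdv4 or Tcrg-V6 numbered 146, with a median of 6 UMIs of the rule genes, and the other 77 had a median of 1. Their median depths were 1829 and 2073 UMIs.

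Against the rest of T cell/ILC, 306 of 5481 genes with at least 30 UMIs were at least 2-fold higher in the gamma-delta cells (5.58%) and 229 were at least 2-fold lower (4.18%), all conditions summed. With TMM scaling, which assumes that most genes are alike, the counts were 211 and 313. Genes of the clustered cells are a description here, since the cell class and the rule both used them. Receptor segments and type 17 regulators led. Trdv4 stood at 737 CPM against 12.4, a log2 ratio of 5.90 (5.11 to 6.82), and Cd163l1 at 435 against 6.65, a log2 ratio of 6.03 (4.96 to 7.36). Il17a stood at 469 against 41.8 CPM, a log2 ratio of 3.49 (3.01 to 3.99). Sox13, Blk and Pcp4, which encodes a calmodulin-binding peptide, followed with log2 ratios of 5.06, 3.79 and 4.49, and Khdrbs3, an RNA-binding protein, Tns4, a focal adhesion protein, and Serpinb1a, a serine protease inhibitor, with 5.23, 3.86 and 2.21. The sign was the same in all 3 pools for each of these genes.

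Of 9 measured type 17 receptors, 8 were at least 2-fold higher, among them Il1r1 with a log2 ratio of 2.26, Il23r with 1.87 and the chemokine receptors Cxcr6 and Ccr2 with 1.28 each. Of 9 type 17 regulators, 6 were at least 2-fold higher, among them Maf with 1.22 and Zbtb16 with 1.60, and 1 was lower. The medians of the receptor and regulator lists were 1.28 and 1.39, beside 0.14 over all genes. In the other direction, 6 of 7 genes of naive and circulating T cells were at least 2-fold lower, including S1pr1, the receptor for exit from tissue, with -2.93, and Lef1 with -1.93. Lck, the kinase that starts signalling from the alpha-beta receptor, stood at 69.2 against 247 CPM, with a log2 ratio of -1.84 (-2.41 to -1.30), and the adhesion receptor Cd2 at -2.55. Areg, a growth factor of group 2 innate lymphoid cells, was lower with -3.19, as was Il1rl1, their IL-33 receptor, with -3.06. Slamf6, Dgka, Fyb, Peli1, Itgb1 and Satb1 completed the lowest named genes, with log2 ratios from -3.04 for Slamf6 to -1.83 for Satb1.

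Set against the rest of T cell/ILC within each condition, some of these genes, such as Serpinb1a and Ccr2, were higher in young gamma-delta cells as well. The fetal segments were thinner there. Serpinb1a stood at 609 CPM against 45.3 in young cells, with a log2 ratio of 3.75 (2.91 to 4.67), at 719 against 136 in aged cells and at 687 against 226 in metformin cells. Ccr2 stood at 518 against 145 CPM in young cells, with a log2 ratio of 1.84 (1.24 to 2.44). Il17a was not higher in the young gamma-delta cells, at 81.3 against 109 CPM, a log2 ratio of -0.42 (-1.74 to 0.71). In aged cells Il17a stood at 937 CPM and had no UMI in the rest, and in metformin cells it stood at 315 against 17.2 CPM, with 4.20 (3.13 to 5.46). In young cells 143 of 1938 genes were at least 2-fold higher than in the rest (7.38%) and 154 lower (7.95%). In aged cells the shares were 6.34% higher and 4.91% lower of 2018 genes, and in metformin cells 3.59% and 4.43% of 3205 genes. A UMI of a type 1 gene (Ifng, Tbx21, Eomes, Gzma, Gzmb or Prf1) was in 20.0% of young gamma-delta cells. It was in 2.44% of the aged and 3.45% of the metformin gamma-delta cells, not thinned for depth. In the rest of T cell/ILC these shares were 14.0%, 8.47% and 9.66% in young, aged and metformin cells.

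The share of gamma-delta cells was higher in both aged conditions than in the young. In young ovaries 0.328% of all cells met the rule (0.212 to 0.484), with 0.361%, 0.200% and 0.419% in pools A, B and C. In aged untreated ovaries the share was 2.75% (2.20 to 3.41), with 2.86%, 2.23% and 3.19%. With metformin it was 3.09% (2.56 to 3.69), with 3.74%, 3.00% and 2.55%. Every aged or metformin pool lay above every young pool, and the pools of the aged and metformin conditions overlapped. The aged to young ratio of shares was 8.39 (5.31 to 13.7), and the metformin to aged ratio was 1.12 (0.839 to 1.51).

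**Figure D2:**
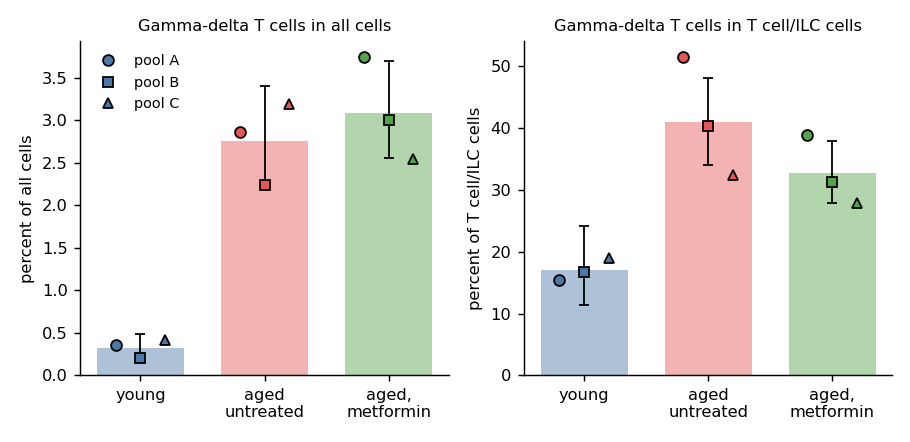
Gamma-delta cells as percent of all cells (left) and of T cell/ILC cells (right) in each condition. Bars are the summed pools, error bars exact 95% intervals for counting error, and points the 3 pools. On the left all 3 young pools lie below 0.5%, and all aged and metformin pools above 2%.

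The ratios of the other lymphocyte classes between aged and young ovaries were smaller. The rest of T cell/ILC had an aged to young ratio of 2.49 (1.92 to 3.24), T cell/NKT of 3.36 (2.74 to 4.14) and NK cell/ILC of 1.15 (0.968 to 1.37). With metformin against aged untreated, T cell/NKT had a ratio of 2.10 (1.80 to 2.47) and the rest of T cell/ILC of 1.60 (1.28 to 2.01). Within T cell/ILC, gamma-delta cells made up 17.1% in young, 41.0% in aged and 32.8% in metformin ovaries. The metformin to aged ratio of those shares was 0.799 (0.597 to 1.07), and 0.756, 0.775 and 0.859 within pools A, B and C. The stringency of the rule moved the young share most. With at least 2 UMIs, 0.105% of young cells met it, and with a Trdc UMI, 0.0919%. The log2 aged to young ratio was then 4.44 and 4.66, against 3.07 under the rule as given. Where cells of any of the 3 lymphocyte classes could enter, it was 1.83.

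Receptor segments and type 17 genes differed between conditions inside the gamma-delta cells. Cd163l1 stood at 98.2, 33.3 and 52.9 CPM in the young pools A, B and C, at 552, 651 and 802 in the aged pools and at 478, 426 and 438 in the metformin pools. The young pools lay lowest, the aged pools highest, and no group overlapped another. The log2 ratio of the summed Cd163l1 CPM was 3.42 (2.25 to 4.90) for aged against young and -0.53 (-0.95 to -0.11) for metformin against aged. Trdv4 stood at 229, 99.8 and 52.9 CPM in the young pools, 950, 723 and 1737 in the aged and 870, 377 and 943 in the metformin pools. All young pools were below the others, and aged and metformin pools overlapped, while within each of the 3 pools the metformin value was below the aged value. The Trdv4 log2 ratios were 3.20 (2.36 to 4.18) and -0.58 (-0.90 to -0.26). Tcrg-V6 was sparse, with 1, 19 and 14 UMIs in the young, aged and metformin cells.

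Any of Cd163l1, Trdv4 and Tcrg-V6 was detected in 28.0% of young, 80.5% of aged and 62.9% of metformin gamma-delta cells. With every cell thinned to 500 UMIs, these shares were 12%, 48.8% and 35.3%. Among cells with a Trdc UMI the shares in young and metformin cells were 57.1% and 86.4%. The aged share moved under that rule by no more than its standard deviation between pools. The metformin share thus depends on the rule. The aged value under that rule is not given here, so aged and metformin cells are not compared under it. In the metformin condition 22.4% of the cells held Trac, against 11.0% in the aged and 32.0% in the young. A gene for a related scavenger receptor, 5830411N06Rik, had 10 UMIs in 4 of 25 young cells, none in 82 aged cells and 5 in 4 of 116 metformin cells, at least 5.13-fold higher in young than in aged cells. Its absence in aged cells allows a share of up to 3.66% of cells with a UMI.

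**Figure D3:**
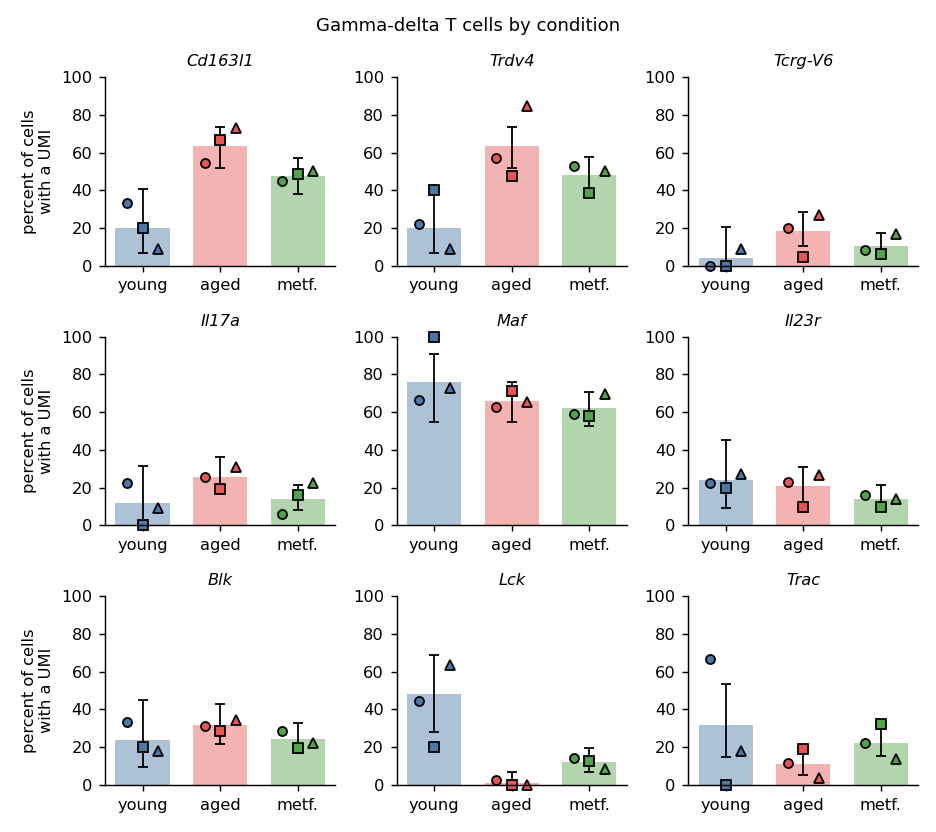
Percent of gamma-delta cells with a UMI of 9 genes in the young, aged untreated and metformin conditions. Bars are the summed pools, error bars exact 95% intervals, and points pools A (circle), B (square) and C (triangle). Cd163l1 and Trdv4 are lowest in young cells, and Lck is highest there.

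Il17a, the effector cytokine of the type 17 program, was highest in aged untreated cells. The young pools A, B and C stood at 229, 0 and 26.4 CPM of Il17a, the aged pools at 690, 1085 and 1158, and the metformin pools at 87.0, 197 and 792. Aged pools were above young pools, and metformin pool C overlapped the aged range. The log2 ratio was 3.53 (2.51 to 4.77) for aged against young and -1.57 (-2.01 to -1.14) for metformin against aged, the latter -2.99, -2.46 and -0.55 in pools A, B and C. Without pool C the metformin value was -2.69 and without pool A it was -1.20. The 3 highest cells held 38.0% of the aged and 47.8% of the metformin UMIs, a clumping that the intervals leave out. Without the cell with the most Il17a UMIs, the log2 ratios were 3.26 for aged against young and -1.30 for metformin against aged. The share of cells with an Il17a UMI was 12% (2.55 to 31.2), 25.6% (16.6 to 36.4) and 13.8% (8.09 to 21.4) in young, aged and metformin cells. Among cells with a UMI of Cd163l1, Trdv4 or Tcrg-V6, the Il17a log2 ratios were 2.01 and -1.07, and with cells thinned to 500 UMIs the metformin ratio was -0.79. The young value rests on 8 UMIs, 7 of them from pool A. Without that pool the log2 ratio of aged against young was 6.25.

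Of 1232 genes with at least 30 UMIs in aged and young gamma-delta cells together, 99 were at least 2-fold higher in aged cells (8.04%) and 27 at least 2-fold lower (2.19%). Of 6 measured type 17 receptors 1 was at least 2-fold higher and all 6 were above 0, with a median log2 ratio of 0.90. Of 4 measured regulators 2 were at least 2-fold higher, Maf with 1.07 (0.54 to 1.64) and Blk with 1.51 (0.37 to 2.83), and all 4 were above 0. The median over all genes was 0.03. Pcp4 had no UMI in young cells and 45 in aged cells, 9.74-fold higher with 3 UMIs put in place of 0, counting error left out.

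The other named genes that were higher in aged cells were Hspa5, a chaperone of the endoplasmic reticulum, with a log2 ratio of 1.72 (1.17 to 2.30), the tissue retention marker Cd69 with 1.61 (1.10 to 2.15), the cytokine Tnf with 2.41 (1.07 to 4.11), Btg2, an antiproliferative early gene, with 1.55 (1.06 to 2.07), Serinc3, a membrane protein, with 1.67 and the CD3 zeta chain Cd247 with 2.65. Cd69 stood at 687, 133 and 370 CPM in the young pools and at 1272, 1158 and 1158 in the aged pools, which did not overlap. Named genes lower in aged cells had log2 ratios between -1.42 and -1.02. They were Skap1, an adaptor of the T cell receptor, Snrnp70, Hnrnpd and Srpk1 of RNA splicing or binding, Arf4 of vesicle transport, the kinase Wnk1, the cytokine Mif, the initiation factor Eif5, the mitochondrial channel Vdac3 and the histone chaperone Nap1l1. Lck, which was not within the count minimum, had 16 UMIs in 12 of 25 young cells, 1 UMI in 82 aged cells and 15 UMIs in 14 of 116 metformin cells. Its log2 ratio of aged against young was -4.62 (-10.01 to -1.94). The rest of T cell/ILC held Lck in 50.4%, 33.1% and 34.9% of cells. For 3 genes higher in aged cells, the part of the 3 young cells with fibroblast RNA was measured by leaving these cells out. The ratios became 3.32 for Cd163l1, 3.10 for Trdv4 and 3.35 for Il17a. Without those cells, 28 named or listed genes past 2-fold still had enough UMIs to be compared. All 28 kept their sign, and 25 stayed past 2-fold. Values of the lower named genes without those cells are not given here.

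Metformin against aged untreated showed fewer genes past 2-fold. Of 1888 genes, 35 were at least 2-fold higher (1.85%) and 42 at least 2-fold lower (2.22%). No measured type 17 receptor (0 of 8) or regulator (0 of 6) was past 2-fold, with medians of -0.25 and -0.32 beside 0.00 over all genes. Il18r1, the IL-18 receptor, stood at 429 against 277 CPM, a log2 ratio of 0.63 (0.09 to 1.19). The lower named genes were led by Il17a and by immediate early genes, which are switched on within minutes of a stimulus and also by tissue dissociation. Fos stood at 1701, 899 and 898 CPM in the young pools, 1517, 2002 and 1358 in the aged and 696, 918 and 674 in the metformin pools. Metformin pools lay below every aged pool, and young pools overlapped both. The log2 ratio of Fos was -1.09 (-1.39 to -0.80). Jun, its partner in AP-1, stood at 491, 1165 and 661 CPM in the young, 1012, 1037 and 1782 in the aged and 370, 869 and 522 in the metformin pools, with a log2 ratio of -1.17 (-1.51 to -0.83). Klf4, a zinc finger factor, was lower with -2.29 (-3.64 to -1.12) and Btg2 with -1.05 (-1.38 to -0.72).

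Gata3, a transcription factor of T cell development, stood at 84.8 CPM with metformin against 264, a log2 ratio of -1.64 (-2.53 to -0.80). Kdm6b, a histone demethylase, Mef2a, a transcription factor, Ifrd1 and Spty2d1, a histone chaperone, were lower with -1.86, -1.95, -1.81 and -1.81. The higher named genes included members of the interferon response list. Ifi47, a GTPase induced by interferon gamma, stood at 151 CPM with metformin against 39.6 in aged cells, with a log2 ratio of 1.93 (0.65 to 3.48). The surface protein Ly6a had 1.31 (0.51 to 2.18). The remaining ones were Sdf2, Nudt21, Uqcrfs1 of respiratory complex III, Lrrfip1, the calcium sensor Stim1, Pdcd5 and the late endosome GTPase Rab7, with log2 ratios from 1.07 to 1.89.

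**Figure D4:**
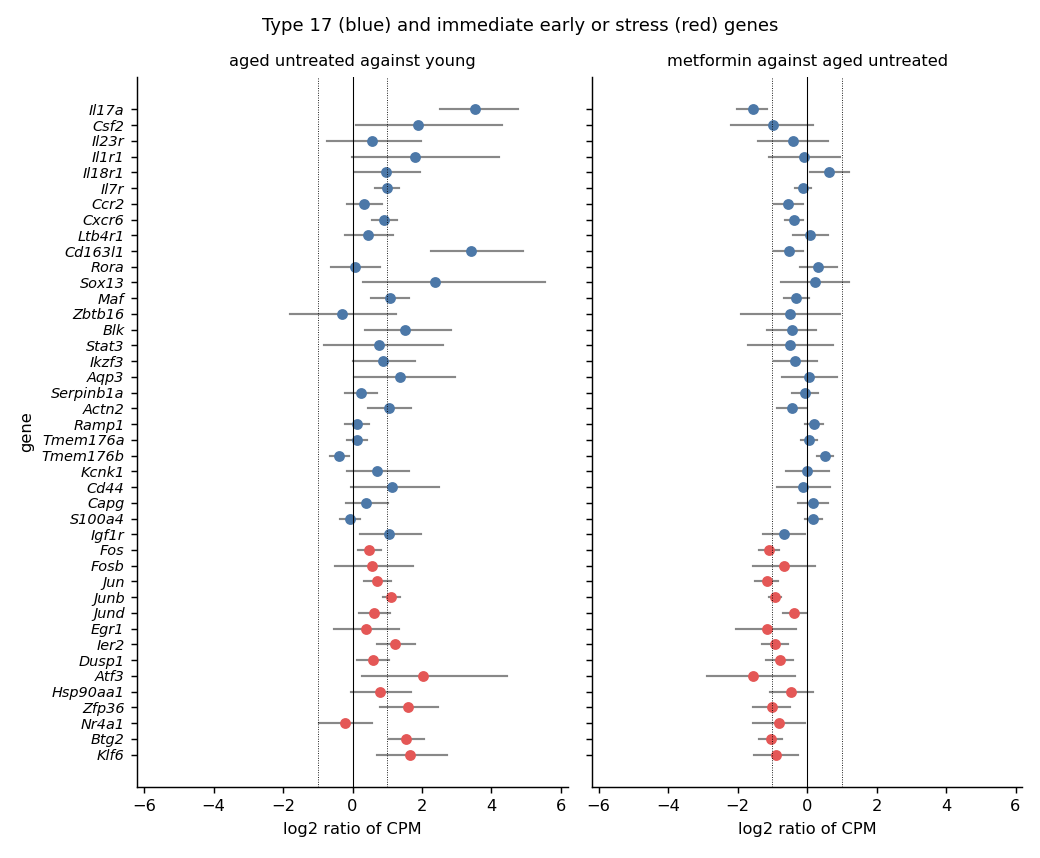
Log2 ratio of CPM (x axis) for type 17 genes (blue) and immediate early or stress genes (red) in gamma-delta cells, aged untreated against young (left) and metformin against aged untreated (right). Bars are exact 95% intervals for counting error, and dotted lines mark 2-fold. The red genes lie left of 0 on the right side, and Il17a is farthest from 0 among the blue genes there.

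As a group, 13 immediate early and stress genes were measured. In aged against young cells 5 were at least 2-fold higher, none was lower, and the median log2 ratio was 0.70, beside 8.04% higher and a median of 0.03 over all genes. In metformin against aged cells none was higher, 5 were at least 2-fold lower, all 13 were below 0, and the median was -0.92, beside 2.22% lower and a median of 0.00 over all genes. The 2 comparisons share the aged cells. The summed level of the list was 8834, 6689 and 5470 CPM in the young pools, 12216, 12878 and 13384 in the aged pools and 6240, 6949 and 7446 in the metformin pools. Aged pools stood above all others, and young and metformin pools overlapped. Without the 3 young cells with fibroblast RNA the young level was 7542 CPM. The rest of T cell/ILC was also highest in aged cells, with 5887, 12472 and 8634 CPM in young, aged and metformin cells, but metformin cells stood above young cells there. T cell/NKT cells had 6962, 7174 and 5797 CPM, and NK cell/ILC cells 10774, 10152 and 9729. The part of dissociation in these levels was not tested.

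The summed level of the interferon response list was lowest in aged cells, but its young value rested in part on the 3 young cells with fibroblast RNA. The summed level was 1636, 2696 and 1268 CPM in the young pools, 904, 506 and 379 in the aged pools and 978, 1229 and 977 in the metformin pools. Aged pools lay below all others. Without those 3 cells the young level was 1034 CPM in place of 1818, and the young pools, at 1636, 476 and 708 CPM, overlapped the aged pools. Of 5 genes measured in aged against young cells, 2 were at least 2-fold lower and all 5 were below 0, with a median of -0.85, beside 2.19% lower and a median of 0.03 over all genes. Too few of them reached 30 UMIs without the 3 cells to give a median. Of 4 measured in metformin against aged cells, 3 were at least 2-fold higher, with a median of 1.15, beside 1.85% higher and a median of 0.00 over all genes. In the rest of T cell/ILC the summed level was 2236, 1945 and 1388 CPM in young, aged and metformin cells, with metformin lowest. It was 3615, 1473 and 1378 CPM in T cell/NKT cells, also with metformin lowest, and 1044, 732 and 890 CPM in NK cell/ILC cells, with aged lowest.

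**Figure D5:**
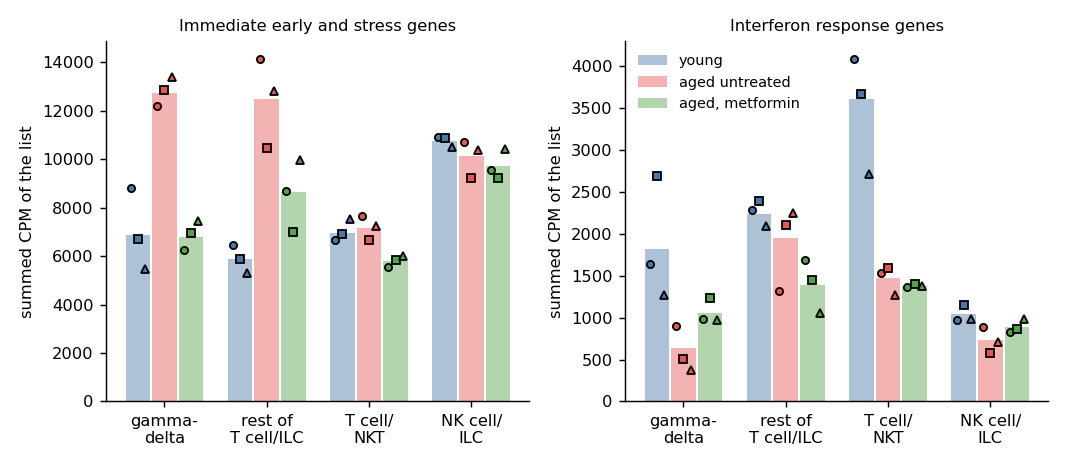
Summed CPM of the immediate early and stress list (left) and of the interferon response list (right) in 4 sets of lymphocytes, by condition. Bars are the summed pools and points pools A (circle), B (square) and C (triangle). Among gamma-delta cells the aged bar is highest on the left and lowest on the right, where the young bar is 1034 without 3 cells that hold fibroblast RNA.

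Metformin is known to act on respiratory complex I. Of 17 nuclear genes of that complex, none was past 2-fold in metformin against aged cells, 14 were above 0 and the median log2 ratio was 0.20, beside 0.00 over all genes. Their summed level was 4997, 5113 and 5122 CPM in the aged pools and 6131, 5785 and 5694 in the metformin pools, which did not overlap. Young pools stood at 5562, 4226 and 5180. The level was also higher with metformin than in aged cells in the rest of T cell/ILC, at 4889 against 4486 CPM, in NK cell/ILC, at 4756 against 4545, and in T cell/NKT, at 4390 against 4287. Of 11 mitochondrially encoded genes 10 were above 0, with a median of 0.14, and none was past 2-fold.

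Metformin against young cells shares its cells with both other comparisons and is set beside them only. Of 1568 genes 110 were at least 2-fold higher (7.02%) and 37 at least 2-fold lower (2.36%). Il17a had a log2 ratio of 1.96, and Pcp4 was at least 5.25-fold higher. The immediate early and stress list had a median of 0.18, and 1 of its 13 genes was at least 2-fold lower.

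Receptors for IL-17 and cytokines upstream of type 17 cells were also read in the other cell types. Il17ra stood at 239 CPM in neutrophils, at 36.8 CPM in the gamma-delta cells, of which 7.17% held a UMI, and at 26.2 CPM in fibroblasts, of which 11.0% did. Il17rc, the second chain, stood at 11.4 CPM in fibroblasts and 14.2 in Myofibroblast II. In fibroblasts Il17ra stood at 22.1, 30.0 and 31.7 CPM in young, aged and metformin ovaries, and Il17rc at 9.36, 12.1 and 15.5. Among the cytokines that drive such cells, Il1b was highest in neutrophils, with 10619 CPM, and Il23a gave only 13 UMIs there. Il7, which maintains these cells, was at 137 CPM in lymphatic endothelium, where 42.0% of cells held it. Cxcl16, the ligand of Cxcr6, was highest in Macrophage/Monocyte I, with 379 CPM. Cxcr6 itself stood at 1315 CPM in the gamma-delta cells, with a UMI in 87.4% of them.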

How the data were processed

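The authors deposited a table of UMI counts for 14353 cells and 18789 genes. The submitters' processing notes name Cell Ranger 3.0.2 and the build GRCm38 (mm10). Per the file headers, further deposited columns hold the percent of mitochondrial UMIs and other labels: pool, tag, condition and cell type. Cells had at least 500 UMIs and at most 20.0% mitochondrial UMIs. No cell was removed, no doublet caller was run, and the deposited doublet column marked none.

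UMIs were summed over the cells of a condition and scaled to CPM. Shares have exact Clopper-Pearson intervals, and ratios have exact intervals conditional on the sum (scipy 1.17.1). Genes were called by size, at least 2-fold with at least 30 UMIs over both sides. A count of 0 was replaced by 3 UMIs over the group. With 1 sample in each condition no test was run. List medians add 1 UMI to both sides. The calculation was tested on simulated counts with known folds. Of unchanged genes, 2.21% to 2.74% were called past 2-fold in either direction over the 3 comparisons. Of genes set at 2-fold, 48 of 87 were called for aged against young and 33 of 83 for metformin against aged. The simulated counts did not clump in single cells, as those of Il17a did.

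Named genes are up to 10 in each direction by the interval bound nearest 0, with the same sign in every pool of at least 10 cells on both sides. The young pools A, B and C held 9, 5 and 11 gamma-delta cells. In comparisons of conditions with young cells the sign was therefore asked of pool C alone. Mitochondrial, ribosomal, haemoglobin and sex-linked genes, and genes over 10-fold higher in another cell type, were not named by that rule. Other named genes come from the lists. The members and lists were chosen with earlier results of these data known. Alternatives left out each pool, asked for 2 UMIs, thinned cells to 500 UMIs, took means over cells, used TMM factors (edgeR 4.0.16), set minimums of 10 or 100 UMIs, took only cells with no alpha-beta receptor UMI, admitted any lymphocyte class, or left out the cell with the most UMIs. Another 3 were chosen after seeing the data: cells with a Trdc UMI, cells with a Cd163l1, Trdv4 or Tcrg-V6 UMI, and all cells but those with fibroblast RNA. Some results are not reported here.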

Additional observations from a re-analysis of the deposited data

Results flagged for a closer look

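Outside the T cell/ILC class, cells with a UMI of Trdc or Tcrg-C1 were also found. They made up 7.59% of NK cell/ILC cells, 64 of 843, and 2.36% of T cell/NKT cells, 23 of 975. These cells entered no comparison.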

How the results depend on the processing

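No paired analysis was possible because the results come from no test. Each pool holds all 3 conditions, and values within pools are given in the text. Calls at 2-fold rest on 1 sample for each condition and cannot show differences between mice, and the young values rest on 25 cells.

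Leaving out 1 pool gave shares of all cells of 0.280% to 0.391% in young, 2.59% to 2.99% in aged and 2.74% to 3.42% in metformin ovaries, and of T cell/ILC of 15.9% to 18.2%, 35.6% to 46.7% and 29.4% to 35.6%. Genes past 2-fold, higher and lower, numbered 63 to 71 and 18 to 22 for aged against young, 16 to 27 and 26 to 33 for metformin against aged, 71 to 84 and 11 to 19 for metformin against young, and 222 to 243 and 180 to 198 for gamma-delta cells against the rest. Counts moved over 1.5 times without pools A or C (aged against young, higher), B (metformin against aged, higher), A (the same, lower), A or B (metformin against young, higher) and each of the 3 (the same, lower). Fewer genes then reach 30 UMIs.

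With at least 2 UMIs, 8 young, 68 aged and 87 metformin cells were left. Young cells were 0.105% of all and 5.48% of T cell/ILC, and 50% held Cd163l1, Trdv4 or Tcrg-V6. Metformin cells were 2.32% and 24.6%, with 79.3% holding those genes and 86.2% a type 17 gene. The log2 aged to young ratio was 4.44, with 20 genes higher in metformin than aged cells and 21 lower than in young cells. With a Trdc UMI, young cells were 0.0919% and 4.79% (57.1% with those 3 genes) and metformin cells 2.16% and 22.9% (86.4%, and 90.1% with a type 17 gene). The log2 ratio was 4.66, with 16 genes lower in aged than young cells, 12 higher and 22 lower in metformin than aged, 22 lower in metformin than young and 359 lower than in the rest. 5830411N06Rik against the rest reversed to -1.92 and -1.84 under these rules. Aged shares moved under both rules by no more than their standard deviation between pools.

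Thinned to 500 UMIs, young, aged and metformin cells were 0.0919%, 1.85% and 2.21% of all and 4.79%, 27.5% and 23.4% of T cell/ILC, with a log2 ratio of 4.33. A type 17 gene was in 42.9%, 69.1% and 53.0% of them, and those 3 genes in 52.7% of aged and 39.8% of metformin cells. Genes higher and lower numbered 12 and 6 (aged, young), 4 and 7 (metformin, aged), 22 and 7 (metformin, young), and 91 and 120 (against the rest). Tcrg-C1 reversed to -0.13 for aged and -0.30 for metformin against young. A minimum of 30 UMIs for single genes in the alternatives was set after seeing that lower counts turned some directions. Of 432 values with 10 to 29 UMIs, 71 turned. Il17a in aged against young cells was among them after thinning, with 16 and 0 UMIs and a value of -0.56 that depends on the 3 UMIs put in place of 0.

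With at least 100 UMIs the counts were 19 and 0, 0 and 7, 15 and 0, and 60 and 60 in the same order, and with at least 10 UMIs 492 and 293, 321 and 343, 617 and 331, and 765 and 645. Only 0 young, 12 aged and 10 metformin cells had no alpha-beta receptor UMI. They gave 3 genes higher and 12 lower in metformin than aged cells and 824 higher than in the rest, where Cd4, Cd8a and Il2 reversed to 0.45, 0.53 and 1.2. Il17a in metformin against aged cells was -3.94 among them. Over any lymphocyte class the share was 0.906% in young and 3.86% in metformin ovaries, with a log2 ratio of 1.83. Without cells with fibroblast RNA, young cells were 15.1% of T cell/ILC. Cells with Cd163l1, Trdv4 or Tcrg-V6 gave 13 genes lower in aged than young cells, 21 higher and 19 lower in metformin than aged, and 14 lower in metformin than young. Except where construction shows it, the cause was not tested.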
